A study of Mus musculus with 9 samples.

Results

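The 8 genes that encode the cyclin-dependent kinase inhibitors were followed in the LSKs of transplanted mice. They are Cdkn1a, Cdkn1b and Cdkn1c of the CIP/KIP group, Cdkn2a, Cdkn2b, Cdkn2c and Cdkn2d of the INK4 group, and Cdkn3. They were chosen by gene name and not by a cut on their values, though with earlier results of these data known. They are 8 of the 24060 named genes in the count table. LSKs are the lineage-low Sca1+ Kit+ fraction of the bone marrow, home to haematopoietic stem and multipotent progenitor cells (HSPCs). Marrow of the C57BL/6 strain was of 3 kinds: control, NHD13 (the NUP98-HOXD13 fusion, a model of myelodysplastic syndrome, under the Vav promoter of blood cells) and NHD13/MSI2 (the same fusion with a doxycycline-inducible MSI2 transgene at Col1a1 and the rtTA activator at ROSA26). It was mixed with CD45.1 helper cells and transplanted into lethally irradiated congenic CD45.1 mice. These mice were fed doxycycline for 3 months before LSKs were sorted. The paper does not state whether the sequenced LSKs were gated on the donor marker CD45.2. The labels give an age of 4 months for all groups, and the paper puts the cells at 4 months after transplantation. There were 3 control, 2 NHD13 and 4 NHD13/MSI2 libraries. The sources do not say whether the libraries of a group came from separate mice, so p-values measure the spread between libraries.

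Cyclin-dependent kinases drive the cell cycle when bound by cyclins, and the inhibitors hold them back. INK4 proteins bind CDK4 and CDK6 and keep the D-type cyclins off them, whereas CIP/KIP proteins bind whole cyclin-kinase complexes and mainly stop CDK2. In blood-forming tissue the CIP/KIP proteins p57 and p27 and the INK4 protein p18 are known for their part in stem cell quiescence and self-renewal, and the Cdkn2a and Cdkn2b locus is kept silent by Polycomb proteins. Much of the control over p27 acts on the protein, which RNA counts do not show.

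Libraries held 19242153 to 23013493 counts on named genes, and 3 counts, the upper limit that a count of 0 allows, corresponded to 0.130 to 0.156 CPM (counts scaled to the library total) before TMM scaling; these limits cover counting error only. Msi2 did not stand higher where the label was NHD13/MSI2: its TMM-normalised CPM there were 88.0, 77.1, 82.8 and 241, against 139 and 111 in NHD13 and 223 to 316 in control, so directions given for that group rest on its label. Hoxd13, a part of the fusion, had 0 counts in every control library and 0.648 to 1.13 CPM in the other 6. The genes that define the sort were not level between the groups. Kit lay between 1775 and 2254 CPM in control, at 1932 and 1121 CPM in NHD13 and between 908 and 1402 CPM in NHD13/MSI2. Ly6a, which encodes Sca1, was at 79.3 to 89.8 CPM in control and 69.0 and 48.3 CPM in NHD13. In NHD13/MSI2 Ly6a was at 375, 254, 312 and 98.6 CPM, with a log2 fold change over control of 1.60 (adjusted p = 0.0167, edgeR). All libraries are labelled LSK, but control replicates 2 and 3 have MPP and HSC in their library names and control replicate 1 has bulk, and the library name of NHD13 replicate 2 lacks the word NHD13. Xist was high in control replicates 1 and 3 and the Y-linked gene Eif2s3y in all the others, so the sexes were not balanced between groups. Replicate 4 of NHD13/MSI2 stood apart from the other 3 libraries of its group (Pearson's r of log2 CPM 0.943 to 0.949, against 0.970 to 0.973 among those 3), and its values are therefore named separately below. The 2 NHD13 libraries were less alike still (r = 0.937).

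None of the inhibitor genes passed the threshold in any comparison. Of the 8, 6 had enough counts to be tested by edgeR's quasi-likelihood test, and Cdkn2a and Cdkn2b did not. At a Benjamini-Hochberg adjusted p under 0.01, 0 of the 6 were called between NHD13/MSI2 and NHD13, where 3.17% of the 13355 genes tested were called. The count was also 0 between NHD13/MSI2 and control, where 11.0% of all genes were called, and 0 between NHD13 and control, where 1.03% were called. At an unadjusted p under 0.05, 1 of the 6 stood in each comparison: Cdkn1c, Cdkn2c and Cdkn1a in that order. Among all genes tested 21.7%, 32.8% and 13.5% stood at such a p in the same order. DESeq2 likewise called 0 in each comparison. The median log2 fold change of the 6 genes was -0.11 in NHD13/MSI2 over NHD13, 0.15 in NHD13/MSI2 over control and -0.11 in NHD13 over control, with medians over all genes of -0.028, -0.011 and 0.017. The comparisons share their control and NHD13 libraries and so are not independent of each other. In RNA of a sorted population, fewer cells that express a gene and less RNA per cell cannot be told apart.

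**Figure D1:**
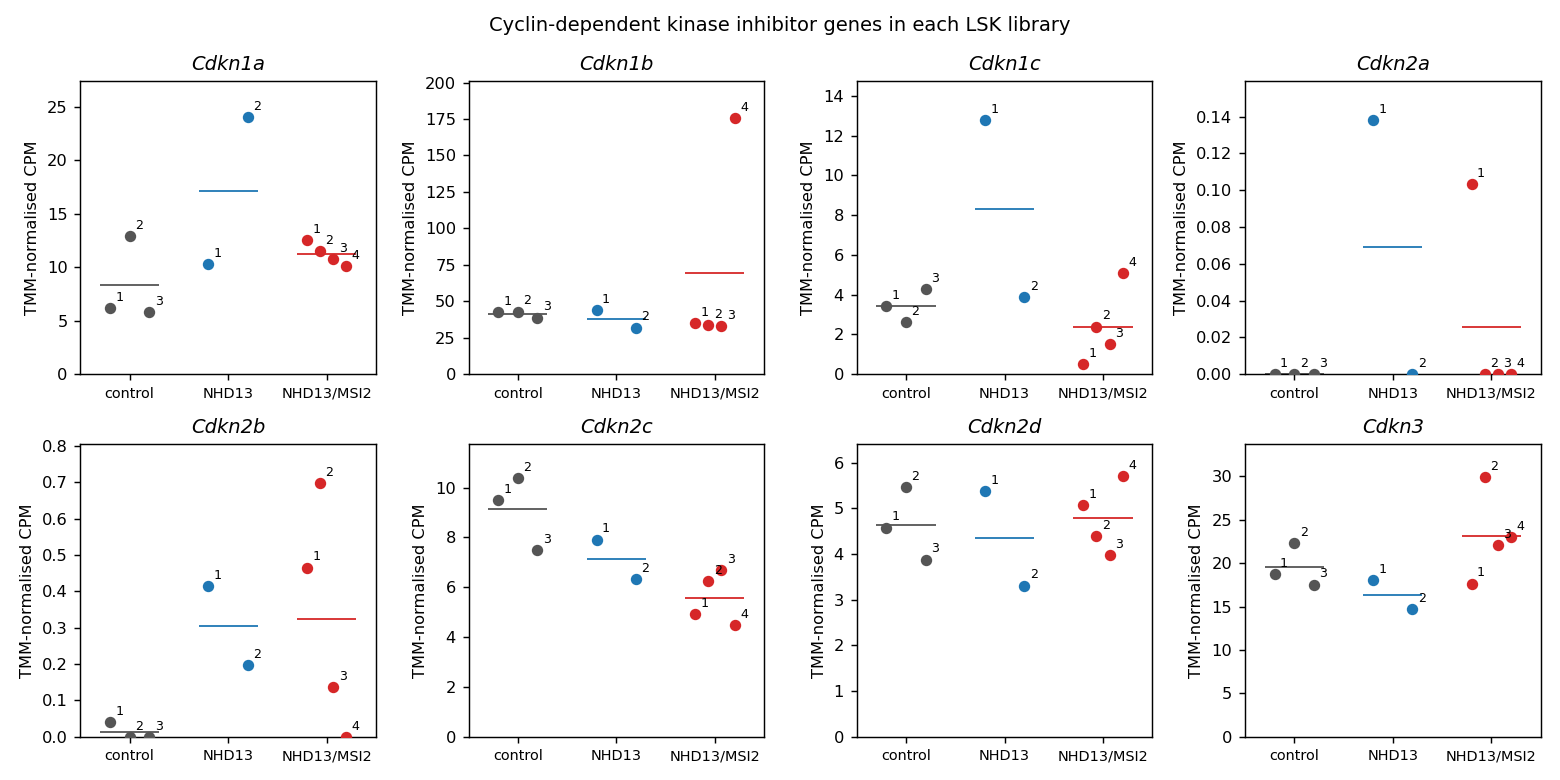
TMM-normalised CPM of each inhibitor gene (vertical axes, linear and starting at 0, with a scale for each gene) in the control, NHD13 and NHD13/MSI2 libraries. Points are libraries with their replicate numbers and lines are group means. Cdkn1b in NHD13/MSI2 replicate 4 (176 CPM) and Cdkn1c in NHD13 replicate 1 (12.8 CPM) lie far from the other libraries, and Cdkn2a and Cdkn2b stay below 1 CPM.

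Cdkn1a encodes p21, a target of p53 that arrests the cycle after DNA damage. On GRCm38 the gene lies on the plus strand of chromosome 17 (29090976 to 29100727) and has more than 1 annotated start. A stretch before the upstream start is shown because p21 is the best known p53 target among these genes. The capitals mark ACATGT, which reads the same on both strands and holds the CATG core of p53 sites (chr17:29090729-29090975, plus strand, RefSeq, GRCm38.p6).
Cdkn1a upstream start: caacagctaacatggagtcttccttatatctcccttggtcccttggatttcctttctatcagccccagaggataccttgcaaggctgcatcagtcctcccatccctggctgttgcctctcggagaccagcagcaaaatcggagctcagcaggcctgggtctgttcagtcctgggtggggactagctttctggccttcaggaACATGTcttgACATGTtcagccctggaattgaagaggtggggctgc
Both copies stand close together, and 0.247% of 32851 RefSeq windows of 250 bases held at least 2 copies, without overlap, while 4.58% held at least 1. None of the other windows of the inhibitor genes held a copy (7 of the 8 genes had at least 1 window, 10 windows in all). The match describes letters, and binding was not measured.

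Cdkn1a stood at 6.17, 12.9 and 5.80 CPM in the control libraries, at 10.3 and 24.0 CPM in NHD13 and at 12.6, 11.5, 10.8 and 10.1 CPM in NHD13/MSI2. NHD13 replicate 2 was the highest library and control replicates 1 and 3 were the lowest, while control replicate 2 was above every NHD13/MSI2 library, so the groups overlapped in all comparisons. The log2 fold change was 1.05 in NHD13 over control (95% interval 0.079 to 2.02, adjusted p = 0.318, edgeR). That value rested on NHD13 replicate 2: without it the log2 fold change was 0.30, and without NHD13 replicate 1 it was 1.54. In NHD13/MSI2 over control the log2 fold change was 0.44 (95% interval -0.39 to 1.27, adjusted p = 0.458, edgeR). In NHD13/MSI2 over NHD13 it was -0.61 (95% interval -1.52 to 0.30, adjusted p = 0.442, edgeR), and 0.17 without NHD13 replicate 2. The 4 NHD13/MSI2 libraries were the closest together of any group, with an SD of 1.05 CPM around a mean of 11.2. A gene model of unspecified type on the other strand, AC167363.2, overlaps Cdkn1a, and the sources used here do not say whether counting used the strand.

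Cdkn1b encodes p27, which binds cyclin E-CDK2 and holds resting cells before S phase (plus strand of chromosome 6, 134920401 to 134925513). Its CPM were 42.6, 42.9 and 38.8 in control, 43.9 and 32.0 in NHD13, and 34.9, 33.6, 33.1 and 176 in NHD13/MSI2. Replicates 1 to 3 of NHD13/MSI2 lay below all control libraries and within the NHD13 range, and replicate 4 was 5.19 times their mean. A ratio at least that large between replicate 4 and the mean of the other 3 was found for 2.00% of the genes tested, where the median ratio was 0.942. With all libraries the log2 fold change was 0.87 over NHD13 (95% interval -0.67 to 2.40, adjusted p = 0.525, edgeR) and 0.74 over control (95% interval -0.58 to 2.06, adjusted p = 0.431, edgeR). Without replicate 4 both turned negative, to -0.15 (standard error 0.15, adjusted p = 0.577, edgeR) and -0.28 (standard error 0.13, adjusted p = 0.146, edgeR). In NHD13 over control the log2 fold change was -0.13 (95% interval -1.69 to 1.44, adjusted p = 0.986, edgeR). The interval is wide because the model takes 1 spread per gene over the 3 groups, and it was -0.14 (standard error 0.15) without NHD13/MSI2 replicate 4.

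Cdkn1c encodes p57, the CIP/KIP protein most tied to stem cell quiescence, from an imprinted gene on the minus strand of chromosome 7 (143458339 to 143461050). It was at 3.43, 2.61 and 4.28 CPM in control, at 12.8 and 3.85 CPM in NHD13 and at 0.517, 2.39, 1.49 and 5.06 CPM in NHD13/MSI2. NHD13 replicate 1 was 1 of the 2 libraries above 5 CPM, the other being NHD13/MSI2 replicate 4, which lay between the NHD13 libraries. Replicates 1 to 3 of NHD13/MSI2 were below every control and NHD13 library. The log2 fold change in NHD13/MSI2 over NHD13, -1.82, was the largest of any tested inhibitor gene (95% interval -3.49 to -0.15, adjusted p = 0.187, edgeR). It depended on single libraries: without NHD13/MSI2 replicate 4 it was -2.47 (adjusted p = 0.0420, edgeR), and without NHD13 replicate 1 it was -0.68 (adjusted p = 0.807, edgeR). Over the alternatives tried, the adjusted p of this difference ranged from 0.0420 to 0.807. In NHD13/MSI2 over control the log2 fold change was -0.55 (95% interval -2.09 to 0.99, adjusted p = 0.629, edgeR) and without replicate 4 it was -1.22. In NHD13 over control it was 1.27 (95% interval -0.52 to 3.06, adjusted p = 0.598, edgeR), and 0.16 without NHD13 replicate 1. Cdkn1c overlaps an annotated antisense gene, Gm44732, and counts of both cannot be told apart where strand was not used.

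Markers of other cells and of stem cells differed between the groups and libraries in which Cdkn1c was compared. The 5 megakaryocyte markers, all found, summed to 538 CPM in NHD13 replicate 1 and 73.7 CPM in NHD13 replicate 2. They summed to 68.2 to 149.6 CPM in control and 9.22 to 35.2 CPM in NHD13/MSI2, where Gp1bb was at 0 in every library. Slamf1, which encodes the stem cell marker CD150, was at 51.8 CPM in NHD13 replicate 1 and 13.4 CPM in NHD13 replicate 2, between 12.6 and 30.2 CPM in control and between 0.050 and 1.86 CPM in NHD13/MSI2. Hlf, a stem cell transcription factor, was at 284 to 477 CPM in control, 26.1 and 10.0 CPM in NHD13, and 0.050 to 0.779 CPM in NHD13/MSI2. The 9 LSK markers, all found and none at 0 in a whole group, summed to 5012 to 5701 CPM in control, 3390 and 2717 CPM in NHD13, and 2307 to 3042 CPM in NHD13/MSI2. These levels did not follow Cdkn1c in every library: NHD13/MSI2 replicate 4, at 5.06 CPM of Cdkn1c, had the lowest megakaryocyte sum, and control replicate 3 had the highest Cdkn1c and the lowest megakaryocyte sum of the control libraries. The 6 B cell markers, all found, summed to 45.7 to 57.5 CPM in control, 127 and 81.9 CPM in NHD13 (with Ms4a1 at 0 in both), and 262 to 448 CPM in NHD13/MSI2. The 5 endothelial markers, all found, summed to 184 to 269 CPM in control, 385 and 369 CPM in NHD13 (with Cdh5 at 0 in both), and 438 to 559 CPM in NHD13/MSI2. For the sums of both lists every NHD13/MSI2 library was above every NHD13 library and every NHD13 library above every control library. The sums do not describe each gene. Of the 6 B cell markers 1, 1 and 3 were above 1 CPM in every library of control, NHD13 and NHD13/MSI2. Of the 5 endothelial markers 3, 3 and 1 were. Other lists were lower outside control. Neutrophil markers (7 of 8 found) summed to 1020 to 2593 CPM in control, 621 and 182 CPM in NHD13, and 246 to 744 CPM in NHD13/MSI2. In the same order the 5 mast cell and basophil markers summed to 18.1 to 67.4, 8.51 and 16.6, and 4.22 to 9.95 CPM. The 8 erythroid markers summed to 11.4 to 16.1, 11.8 and 2.62, and 0.549 to 3.76 CPM. Sums of the T cell, macrophage and fibroblast lists were at most 63.1 CPM in any library. The part of these differences in the values of the inhibitor genes was not tested.

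Of the INK4 genes, Cdkn2a and Cdkn2b had few or no counts in every library and Cdkn2c and Cdkn2d were expressed. Cdkn2a and Cdkn2b stand side by side on the minus strand of chromosome 4, Cdkn2a from 89274471 to 89294653 and Cdkn2b from 89306299 to 89311039. Cdkn2a has separate starts for the INK4 protein p16 and for ARF, which stabilises p53, and the counts, taken per gene, do not separate them. The stretches before these starts and before that of Cdkn2b, which encodes p15, are shown because this locus holds the members with next to no RNA, and the capitals mark CG pairs, the sites of DNA methylation. The positions are chr4:89294654-89294869 for ARF, chr4:89282193-89282442 for p16 and chr4:89311040-89311282 for Cdkn2b, all on the minus strand (RefSeq, GRCm38.p6).
Cdkn2a ARF start: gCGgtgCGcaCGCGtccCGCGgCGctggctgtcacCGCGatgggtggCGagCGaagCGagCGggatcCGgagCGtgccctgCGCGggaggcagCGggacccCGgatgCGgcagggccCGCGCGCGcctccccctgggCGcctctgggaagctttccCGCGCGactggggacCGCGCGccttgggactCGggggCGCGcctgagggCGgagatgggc
Cdkn2a p16 start: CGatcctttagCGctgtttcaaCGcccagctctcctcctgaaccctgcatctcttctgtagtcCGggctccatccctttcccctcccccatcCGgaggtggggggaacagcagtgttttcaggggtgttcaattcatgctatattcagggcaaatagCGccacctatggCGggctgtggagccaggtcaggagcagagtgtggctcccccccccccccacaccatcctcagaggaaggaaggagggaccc
Cdkn2b start: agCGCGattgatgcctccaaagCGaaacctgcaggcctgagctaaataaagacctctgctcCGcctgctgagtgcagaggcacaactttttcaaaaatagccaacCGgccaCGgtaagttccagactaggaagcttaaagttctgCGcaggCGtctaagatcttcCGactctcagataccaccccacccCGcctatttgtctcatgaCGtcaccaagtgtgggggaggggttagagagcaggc
In windows of 250 bases the ARF start held 40 CG pairs, a number that 1.31% of all RefSeq windows reached. The p16 start held 7 and the Cdkn2b start 12, against a median of 6 over all windows. Methylation was not measured in these samples.

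Cdkn2a had 0 counts in the 3 control libraries, 3 and 0 counts in NHD13 and 2, 0, 0 and 0 counts in NHD13/MSI2. Every library was thus at or under the limit of 3 counts, and no difference was detectable at this depth. Over the summed libraries the level was 0.0715 CPM in NHD13 (exact Poisson 95% interval 0.0147 to 0.209) and 0.0260 CPM in NHD13/MSI2 (0.00315 to 0.0940), with an upper limit of 0.0523 CPM in control.

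Cdkn2b had 1, 0 and 0 counts in control, 9 and 4 counts in NHD13, and 9, 14, 3 and 0 counts in NHD13/MSI2. Both NHD13 libraries and NHD13/MSI2 replicates 1 to 3 had more counts than any control library, and NHD13/MSI2 replicate 4 had none. Among the genes tested, 37.4% had NHD13 and control libraries that did not overlap, and Cdkn2b itself was not among the genes tested. Summed over libraries the level was 0.0142 CPM in control (exact Poisson 95% interval 0.000359 to 0.0790), 0.310 CPM in NHD13 (0.165 to 0.529) and 0.338 CPM in NHD13/MSI2 (0.221 to 0.495). The ratio of NHD13 to control was 21.8 with a counting interval of 3.28 to 928, and that of NHD13/MSI2 to control was 23.9 with a counting interval of 3.92 to 978. These intervals cover counting error of the pooled libraries and not the spread between them. When the filter on low counts was left out, edgeR gave an adjusted p of 0.403 for NHD13 over control and 0.124 for NHD13/MSI2 over control, and DESeq2 gave 0.0726 for the latter. Between NHD13/MSI2 and NHD13 the ratio was 1.09 with a counting interval of 0.541 to 2.31.

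Cdkn2c encodes p18, the INK4 protein known to limit self-renewal of haematopoietic stem cells (minus strand of chromosome 4, 109660876 to 109667189). Its CPM were 9.49, 10.4 and 7.48 in control, 7.91 and 6.32 in NHD13, and 4.91, 6.23, 6.70 and 4.48 in NHD13/MSI2. All 4 NHD13/MSI2 libraries were below all 3 control libraries, and NHD13 overlapped both groups. Cdkn2c was the 1 tested inhibitor gene whose NHD13/MSI2 and control libraries did not overlap, which held for 35.7% of all genes tested. Between NHD13/MSI2 and NHD13 the libraries of all 6 tested inhibitor genes overlapped, against 29.9% of all genes without overlap. The log2 fold change in NHD13/MSI2 over control was -0.71 (95% interval -1.29 to -0.12, adjusted p = 0.0874, edgeR). By DESeq2 the adjusted p was 0.0320, and over all alternatives it lay between 0.0320 and 0.263 with log2 fold changes of -0.83 to -0.60. In NHD13/MSI2 over NHD13 the log2 fold change was -0.35 (95% interval -1.01 to 0.31, adjusted p = 0.554, edgeR). In NHD13 over control it was -0.36 (95% interval -1.06 to 0.35, adjusted p = 0.772, edgeR).

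Cdkn2d encodes p19INK4D, the remaining CDK4 and CDK6 inhibitor (minus strand of chromosome 9, 21288410 to 21291407). Its CPM were 4.58, 5.46 and 3.88 in control, 5.38 and 3.31 in NHD13, and 5.07, 4.39, 3.98 and 5.71 in NHD13/MSI2. The groups overlapped throughout, and the log2 fold changes were 0.14 in NHD13/MSI2 over NHD13, 0.045 in NHD13/MSI2 over control and -0.093 in NHD13 over control. Their 95% intervals were -0.65 to 0.93, -0.65 to 0.74 and -0.92 to 0.73, and adjusted p-values by edgeR were 0.871, 0.941 and 0.980. Each sign turned when a single library was left out, as given with the alternatives.

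Cdkn3 encodes a phosphatase that removes the activating phosphate from CDK2 and whose RNA rises in dividing cells (plus strand of chromosome 14, 46760541 to 46771669). Its CPM were 18.8, 22.3 and 17.5 in control, 18.0 and 14.7 in NHD13, and 17.6, 29.9, 22.0 and 23.0 in NHD13/MSI2. NHD13/MSI2 replicate 2 was the highest library and replicate 1 lay within the NHD13 range. The log2 fold change was 0.50 in NHD13/MSI2 over NHD13 (95% interval -0.054 to 1.05, adjusted p = 0.281, edgeR). It was 0.25 in NHD13/MSI2 over control (95% interval -0.23 to 0.72, adjusted p = 0.472, edgeR) and -0.25 in NHD13 over control (95% interval -0.83 to 0.32, adjusted p = 0.821, edgeR).

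**Figure D2:**
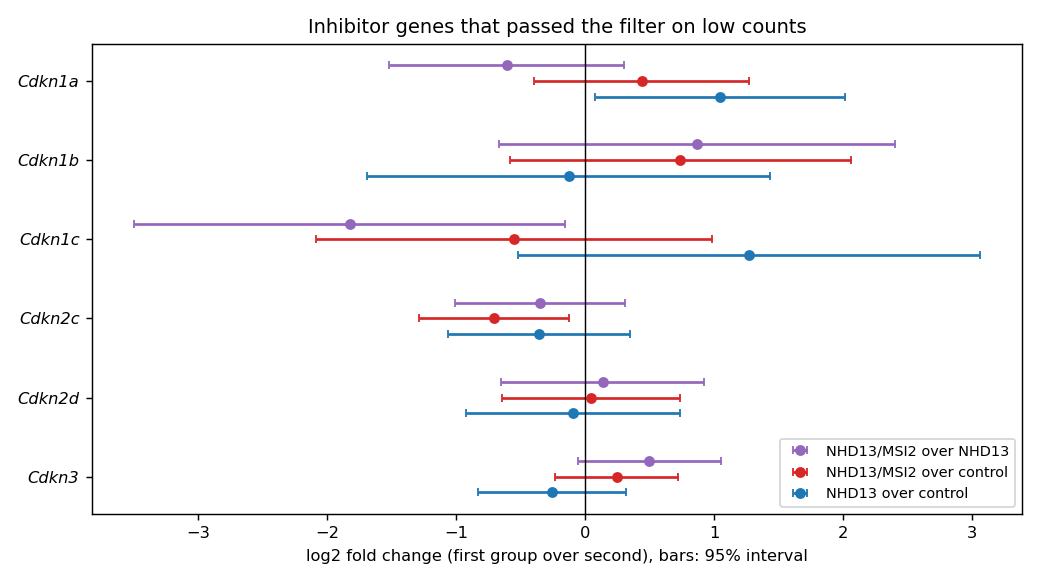
Log2 fold change (horizontal axis) with its 95% interval for the 6 tested inhibitor genes in 3 comparisons, from edgeR with all libraries. The intervals of Cdkn1b and Cdkn1c are the widest, and those of Cdkn1c in NHD13/MSI2 over NHD13, Cdkn2c in NHD13/MSI2 over control and Cdkn1a in NHD13 over control leave out 0, with adjusted p of 0.187, 0.0874 and 0.318.

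To compare genes with each other, CPM were divided by the length of the merged exons in kb, which gives RPKM. In control LSKs the order was Cdkn1b at 9.10 ± 0.500 RPKM (SD, n = 3), Cdkn3 at 8.24 ± 1.05, Cdkn2c at 3.39 ± 0.555, Cdkn2d at 2.95 ± 0.502, Cdkn1a at 2.33 ± 1.13 and Cdkn1c at 1.69 ± 0.409. The libraries of Cdkn1b and Cdkn3 overlapped, those of Cdkn3 and Cdkn2c did not, and each neighbour from Cdkn2c to Cdkn1c overlapped the next. Cdkn2b was at 0.00981 RPKM and Cdkn2a was at 0. In NHD13 the order was Cdkn1b at 8.34 RPKM, Cdkn3 at 6.91, Cdkn1a at 4.82, Cdkn1c at 4.08, Cdkn2d at 2.76 and Cdkn2c at 2.65, and each of these overlapped the next. In NHD13/MSI2 Cdkn1b was at 15.2 ± 15.6 RPKM (SD, n = 4), but at 7.44 ± 0.197 (SD, n = 3) without replicate 4, below the mean of Cdkn3, 9.78 ± 2.63, in the same 3 libraries. The libraries of both genes overlapped there, with Cdkn1b at 7.66 and Cdkn3 at 7.44 RPKM in replicate 1. Cdkn1a, Cdkn2d, Cdkn2c and Cdkn1c followed at 3.16, 3.04, 2.08 and 1.16 RPKM over 4 libraries. With the longest transcript as the length, Cdkn3 stood above Cdkn1b in control and NHD13, and Cdkn1a moved above Cdkn2c in control.

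The CIP/KIP genes made up 46.1% to 49.2% of the summed per-length level of the 8 genes in control, 56.7% and 59.2% in NHD13, and 39.3% to 74.6% in NHD13/MSI2, where the highest value was replicate 4. The INK4 genes made up 21.1% to 23.8% in control, 17.4% and 20.4% in NHD13, and 8.99% to 22.5% in NHD13/MSI2. The larger CIP/KIP part in both NHD13 libraries came from different genes: Cdkn1a reached 25.5% of the sum in replicate 2 and Cdkn1c 18.9% in replicate 1. The summed level was 24.9 to 31.1 RPKM in control, 26.5 and 33.2 RPKM in NHD13 and 24.4 to 58.9 RPKM in NHD13/MSI2. Without Cdkn1b the sums were 16.4 to 21.7, 19.5 and 23.5, and 16.7 to 22.6 RPKM.

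**Figure D3:**
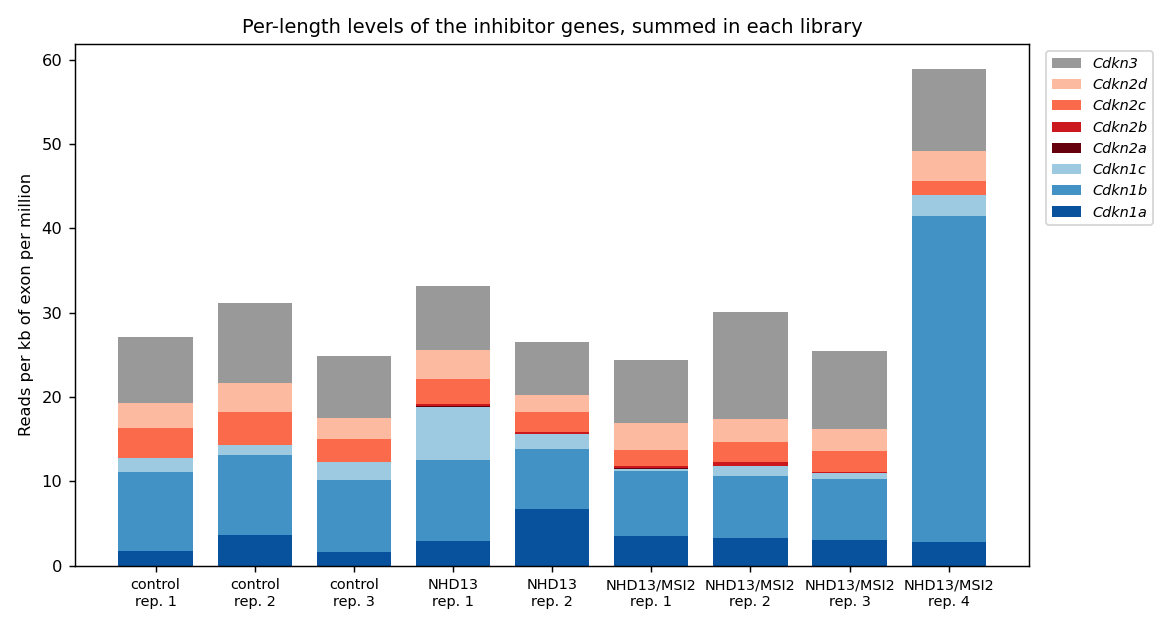
Per-length level (RPKM, CPM per kb of merged exons) of the 8 inhibitor genes stacked in each of the 9 libraries, CIP/KIP genes in blue, INK4 genes in red and Cdkn3 in grey. The stacks reach 24.4 to 33.2 in all libraries except NHD13/MSI2 replicate 4 at 58.9, where Cdkn1b makes up 65.5%.

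The genes whose log2 CPM were most alike across the 9 libraries were listed for each tested inhibitor gene, over 10971 genes with a mean of at least 50 counts. Pearson's r is a description, since the 9 libraries share their groups and replicate 4 stands apart. For Cdkn1b they were Slc39a1 (r = 0.994), Acot2 (0.994) and Gtf2a1 (0.991). All 3 shared the high value of replicate 4, as Slc39a1 was at 83.4, 87.7 and 83.3 CPM in NHD13/MSI2 replicates 1 to 3 and at 447 CPM in replicate 4. For 4.01% of the genes r with Cdkn1b was above 0.9. For Cdkn2c they were Gng12 (0.980), Bgn (0.963) and Vsig10l (0.945), all 3 of which were lower in every NHD13/MSI2 library than in any control library. These groups did not overlap, in either direction, for 35.7% of all genes tested. For Cdkn1c they included Esyt2 (0.931) and Pde3b (0.925), and for Cdkn1a they were Csgalnact2 (0.924), Slc1a5 (0.918) and Eif3f (0.911). For Cdkn2d they were Usp44 (0.905), Zfp316 (0.901) and Adora2a (0.895), and for Cdkn3 Cutc (0.915), Crebrf (0.870) and Cdca8 (0.857). Cdca8 encodes a part of the mitotic chromosomal passenger complex.

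The kinases and cyclins that the INK4 proteins act on were examined next. Of the 5 genes for D-type cyclins, CDK4 and CDK6, 0 were called by edgeR in any comparison, with 1 at an unadjusted p under 0.05 in NHD13/MSI2 over NHD13, 3 in NHD13/MSI2 over control and 0 in NHD13 over control, where the shares of all genes were 21.7%, 32.8% and 13.5%. DESeq2 called 1 of the 5 in NHD13/MSI2 over control, where it called 2591 genes in all and edgeR called 1474 (11.0%). Ccnd1, which encodes cyclin D1, had the lowest adjusted p in each comparison. It was at 26.2, 37.1 and 18.7 CPM in control, 30.5 and 44.8 CPM in NHD13, and 63.0, 55.9, 48.7 and 80.5 CPM in NHD13/MSI2, where every library was above those of the other groups. NHD13/MSI2 libraries did not overlap those of NHD13 for 29.9% of all genes tested, nor those of control for 35.7%. The log2 fold change of Ccnd1 was 1.18 over control (standard error 0.27, adjusted p = 0.0136, edgeR) and 0.72 over NHD13 (standard error 0.31, adjusted p = 0.210, edgeR). Ccnd2, which encodes cyclin D2 and was named after its values were seen, was at 559, 675 and 515 CPM in control, 522 and 344 CPM in NHD13, and 101, 91.8, 89.5 and 485 CPM in NHD13/MSI2. Its log2 fold change over control was -1.60 (adjusted p = 0.0856, edgeR) with all libraries and -2.63 (adjusted p = 3.51e-05, edgeR) without replicate 4. Over NHD13 these values were -1.18 (adjusted p = 0.336, edgeR) and -2.19 (adjusted p = 0.000587, edgeR).

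The kinases downstream and the RB and E2F genes gave few calls. Of the 8 genes for CDK2, CDK1 and their cyclins, 7 were tested and 0 were called by edgeR or DESeq2, with 1, 2 and 1 at an unadjusted p under 0.05 in the 3 comparisons. Counts over the 3 comparisons are given here and below with NHD13/MSI2 over NHD13 first, then NHD13/MSI2 over control, and last NHD13 over control, and the shares of all genes at an unadjusted p under 0.05 were 21.7%, 32.8% and 13.5%. The median log2 fold changes of these 7 genes were 0.0036 in NHD13/MSI2 over NHD13, -0.23 in NHD13/MSI2 over control and -0.32 in NHD13 over control. Cdk1, which drives mitosis, was at 131, 176 and 146 CPM in control, 102 and 98.7 CPM in NHD13, and 109, 112, 112 and 68.1 CPM in NHD13/MSI2, so every control library was above all the others. Its log2 fold change was -0.59 in both NHD13/MSI2 over control (adjusted p = 0.0605, edgeR) and NHD13 over control (adjusted p = 0.299, edgeR). Control libraries did not overlap those of NHD13/MSI2 for 35.7% of all genes tested, nor those of NHD13 for 37.4%. Cdk2, with the lowest adjusted p of this list between NHD13/MSI2 and NHD13, differed by 0.36 on the log2 scale (standard error 0.14, adjusted p = 0.166, edgeR). Of the 13 pocket protein and E2F genes, 2 fell in NHD13/MSI2 over control, where 11.0% of all genes were called in either direction. In NHD13/MSI2 over NHD13 and in NHD13 over control edgeR called 0, with 4 and 2 at an unadjusted p under 0.05, and DESeq2 called 1 and 0. Over all genes DESeq2 called 1296 and 603 in these comparisons, and edgeR called 423 (3.17%) and 138 (1.03%). E2f3, an activator of S phase genes, fell by 0.93 on the log2 scale (standard error 0.18, adjusted p = 0.00669, edgeR), from 36.8, 40.5 and 41.0 CPM in control to 19.3, 21.0, 18.1 and 24.3 CPM. Tfdp2, the DNA-binding partner of E2F proteins, fell by 1.03 (standard error 0.17, adjusted p = 0.00251, edgeR), from 98.4, 85.0 and 78.3 CPM to 46.0, 39.7, 33.5 and 51.3 CPM. Leaving out any control library, or NHD13/MSI2 replicate 1, 2 or 3, ended the call of E2f3 (adjusted p up to 0.0317), and leaving out control replicate 1 or 2 ended that of Tfdp2 (up to 0.0143). E2f2 was highest in NHD13, at 35.6 and 20.7 CPM against 11.8 to 15.2 CPM in control and 12.9 to 15.8 CPM in NHD13/MSI2, with an adjusted p of 0.0387 between NHD13/MSI2 and NHD13 and 0.0857 between NHD13 and control (edgeR).

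Genes that act on the kinases or on the CIP/KIP proteins gave no call by edgeR. Of the 8 genes for the CDK-activating kinase, CDC25 phosphatases and WEE kinases, 0 were called by edgeR or DESeq2 in any comparison (0, 1 and 2 at an unadjusted p under 0.05, against 21.7%, 32.8% and 13.5% of all genes). Wee1, which encodes a kinase that blocks CDK1, was at 43.9, 50.8 and 57.5 CPM in control, 25.6 and 31.6 CPM in NHD13 and 30.6, 27.1, 24.5 and 46.6 CPM in NHD13/MSI2, with log2 fold changes over control of -0.83 in NHD13 (adjusted p = 0.207, edgeR) and -0.66 in NHD13/MSI2 (adjusted p = 0.0740, edgeR). Between NHD13/MSI2 and NHD13 the lowest adjusted p was that of Cdc25c, 0.369, with a log2 fold change of 0.34. Of the 12 genes for the ubiquitin ligases that mark CIP/KIP proteins for destruction, edgeR called 0 in each comparison, with 1, 5 and 0 at an unadjusted p under 0.05 (21.7%, 32.8% and 13.5% of all genes). DESeq2 called 2 of the 12 in NHD13/MSI2 over control, where it called 2591 genes in all and edgeR called 1474 (11.0%). Skp2, which encodes the subunit that recognises p27, was at 69.1, 76.9 and 74.6 CPM in control, 64.2 and 65.5 CPM in NHD13 and 49.9, 57.9, 51.9 and 48.7 CPM in NHD13/MSI2. The 3 groups of Skp2 did not overlap, and its log2 fold change in NHD13/MSI2 over control was -0.50 (standard error 0.12, adjusted p = 0.0163, edgeR). Groups without overlap were common among all genes tested. They were found for 29.9% between NHD13/MSI2 and NHD13, 35.7% between NHD13/MSI2 and control and 37.4% between NHD13 and control. Dtl, which encodes the subunit that recognises p21, was at 269.7, 352 and 301 CPM in control, 209 and 257 CPM in NHD13 and 226, 183, 199.9 and 225 CPM in NHD13/MSI2. Every control library of Dtl was above all the others, and its log2 fold change was -0.56 in NHD13/MSI2 over control (adjusted p = 0.0279, edgeR) and -0.40 in NHD13 over control (adjusted p = 0.397, edgeR).

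Of the 22 Polycomb and other regulators of the Ink4 locus, 1 fell in NHD13/MSI2 over NHD13 and 2 fell in NHD13/MSI2 over control, while none rose by this test. Of all genes 3.17% and 11.0% were called in these comparisons. In NHD13 over control edgeR and DESeq2 called 0 of the 22, with 2 at an unadjusted p under 0.05, and the lowest adjusted p was 0.273 for Ezh1. Pcgf2, which encodes MEL18 of Polycomb repressive complex 1, was at 2.53, 5.17 and 2.24 CPM in control and 3.54 and 3.16 CPM in NHD13. In NHD13/MSI2 it had 0, 1, 2 and 0 counts. Summed over libraries the ratio of control to NHD13/MSI2 was 82.5 with a counting interval of 27.9 to 403, and that of NHD13 to NHD13/MSI2 was 86.1 with a counting interval of 28.9 to 422. Adjusted p-values of Pcgf2 were 0.000745 and 0.00283 (edgeR), and the call over NHD13 was lost without NHD13 replicate 1 (adjusted p = 0.0113) and with these 2 groups fitted alone (adjusted p = 0.0292). Ets2, which encodes an activator of p16, fell in NHD13/MSI2 over control by 2.71 on the log2 scale (standard error 0.46, adjusted p = 0.00318, edgeR), from 15.6, 13.9 and 18.4 CPM to 2.43, 4.29, 2.26 and 0.714 CPM. The loss of any control library, or of NHD13/MSI2 replicate 1 or 3, ended that call, with adjusted p up to 0.0155. Pcgf2 and Tfdp2 are among the gene names that had to be moved in the table, and neither was called under its deposited name.

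Of the 20 S phase and mitosis genes, edgeR and DESeq2 called 0 in every comparison, with 2, 4 and 5 at an unadjusted p under 0.05 (21.7%, 32.8% and 13.5% of all genes). Their log2 fold changes were positive for 16 of 20 in NHD13/MSI2 over NHD13 (median 0.11) and negative for 16 of 20 in NHD13/MSI2 over control (median -0.22) and 18 of 20 in NHD13 over control (median -0.30), where medians over all genes were -0.028, -0.011 and 0.017. Bub1b, a spindle checkpoint gene, was at 197, 177 and 190.2 CPM in control, 145 and 113 CPM in NHD13 and 150.0, 150.3, 156 and 166 CPM in NHD13/MSI2, and had the lowest adjusted p in NHD13 over control, 0.124 (edgeR). Nusap1 had the lowest in NHD13/MSI2 over control, 0.0583, with a log2 fold change of -0.43, and Plk1 in NHD13/MSI2 over NHD13, 0.134, with a log2 fold change of 0.98. Every control library was above the libraries of both other groups for Bub1b and Nusap1. Control libraries did not overlap those of NHD13/MSI2 for 35.7% of all genes tested, nor those of NHD13 for 37.4%.

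**Figure D4:**
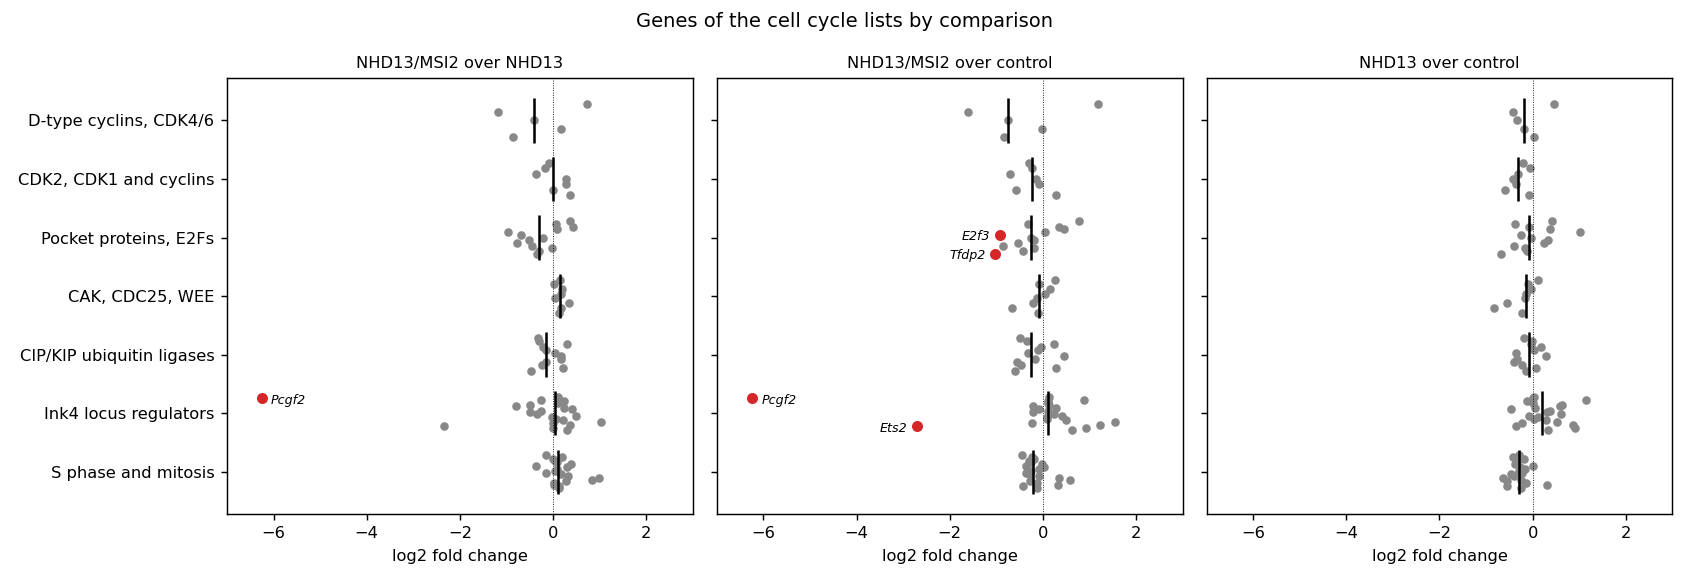
Log2 fold change (horizontal axes) of the genes in 7 cell cycle lists (rows) in 3 comparisons. Grey points are genes that did not pass the threshold, red points with names are genes at an adjusted p under 0.01, and black bars are list medians. The named genes lie between -6.25 and -0.93, and NHD13 over control has none.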

How the data were processed

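RNA of sorted LSKs was sequenced in 9 libraries, grouped by the sample labels. The table deposited by the authors holds raw read counts for each gene symbol in each library. The submitters' processing notes name STAR, HTSeq, DESeq and the build mm9, with no order or versions, and strandedness is not given in the sources used here. Names after the March genes stood 2 rows above their counts, so 11942 of them (49.6%) were shifted by 2 rows, which left 13 rows unnamed (0.0253% to 0.0323% of a library). At a move of 2 rows, and at none from 0 to 4 besides it, Xist was high in control replicates 1 and 3 alone (21712 and 21664 counts). The inhibitor genes precede the March genes and were not moved.

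Counts were filtered with filterByExpr, normalised by TMM and tested with the quasi-likelihood method of edgeR 4.0.16 (R 4.3.3) over all 9 libraries, with Benjamini-Hochberg adjustment over 13355 genes and a threshold of 0.01. Intervals are 95%. Log2 CPM used a prior count of 2. On simulated counts with 200 changed genes edgeR called 76.0% of them in NHD13/MSI2 over NHD13 and 80.0% in NHD13/MSI2 over control, over 13060 genes. It also called 4 unchanged genes in each. DESeq2 called 90% and 92.5% of the changed genes, together with 29 and 26 unchanged genes. In NHD13 over control, where 0 genes were changed, edgeR called 0 and DESeq2 called 13. The sizes given to the changed genes are not stated here, and the shares were not split by size. For the tested inhibitor genes the estimates ran from -1.82 to 1.27 on the log2 scale. The share called at those sizes was not tested, so the shares above do not give it. Alternatives were DESeq2 1.42.0, RLE factors, no filter, the 2 groups alone, the replicate number as a block, a threshold of 0.05 and each library left out, and, chosen after seeing the data, the names as deposited. Positions and lengths are from GENCODE M21 on GRCm38, another build than mm9, and start windows from RefSeq on GRCm38.p6; Cdkn1c had no window. Named were all inhibitor genes, the called genes of each list (at most 3 per comparison and direction) or else its lowest adjusted p, the 3 most alike genes per inhibitor gene, and the genes of the label check. For Cdkn1c, 1 of the 3 most alike genes is not reported here. Ccnd2 and Cdk6 were added after their values were seen. The members and lists were chosen with earlier results of these data known.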

Additional observations from a re-analysis of the deposited data

Results flagged for a closer look

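Among the 8 inhibitor genes examined in the 4 NHD13/MSI2 libraries, 2 had a library far from the other 3 by Dixon's test (95% critical value for 4 samples). For normally distributed values chance meets this in about 1 of 20 groups. In these libraries it was met more often, for 8.84% of all genes tested by replicate 4 on the high side alone. Cdkn1b was at 175.6 CPM in replicate 4, a gap of 0.988 of the range. Replicate 4 was the far library on the high side for 8.84% of the genes tested and on the low side for 2.55%, whereas each of replicates 1 to 3 was far on the high side for 0.973% to 1.78% and on the low side for 0.157% to 0.240%. Cdkn2a was at 0.103 CPM in replicate 1, where 2 counts stood against 0 in the other 3 libraries, under the limit of 3 counts. With 0 in the other 3 libraries the gap is the whole range whatever the count, so this flag says nothing about Cdkn2a.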

How the results depend on the processing

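No inhibitor gene was called in any of the 3 comparisons under the 16 alternatives, a threshold of 0.05 included, and with each library left out the count was 0 to 0. Of 288 values of single inhibitor genes under the alternatives, 276 kept their sign and their side of the threshold and 12 turned their sign. The replicate numbers gave no clear sign of pairing. Correlations of deviations from the group means were -0.072 to 0.19 for same-numbered libraries and -0.19 to 0.15 for the others. The deviations of the 2 NHD13 libraries mirror each other, so this check cannot decide whether libraries were paired. Replicate number 4 occurs in NHD13/MSI2 only, so the block gave that library a term of its own. Its values then did not bear on the group differences, much as when it was left out. With the replicate block the log2 fold change of Cdkn1b turned to -0.12 over NHD13 and -0.29 over control, where leaving out replicate 4 gave -0.15 and -0.28. That of Cdkn2d turned to -0.055 in NHD13/MSI2 over control, and the count of all genes called between NHD13/MSI2 and NHD13 went from 423 to 203. The call of Pcgf2 over NHD13 was also lost with the replicate block (adjusted p = 0.0175). Among the D-type cyclin genes the block instead brought calls, 1 over NHD13 (Ccnd2, adjusted p = 0.00365) and 2 over control (Ccnd1, 0.00837, and Ccnd2, 0.000335). With a library left out, the log2 fold change of Cdkn1a in NHD13/MSI2 over NHD13 ranged from -1.07 to 0.17, that of Cdkn1b from -0.15 to 1.15 over NHD13, from -0.28 to 0.98 over control and from -0.37 to 0.072 in NHD13 over control. That of Cdkn2d ranged from -0.13 to 0.56 in NHD13/MSI2 over NHD13, from -0.070 to 0.18 in NHD13/MSI2 over control (-0.044 without NHD13/MSI2 replicate 4) and from -0.48 to 0.20 in NHD13 over control (0.039 without control replicate 2). Why single libraries differed from the rest of their group was not tested.

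Counts over all genes, on which the background shares rest, moved more. Between NHD13/MSI2 and NHD13 the count of 423 became 1296 by DESeq2, 30 with only these 2 groups, 1177 at a threshold of 0.05 and 128 to 646 with a library left out, lowest without NHD13 replicate 1 and highest without NHD13/MSI2 replicate 4; the loss of any library other than NHD13 replicate 2 moved it by over 1.5 times. In NHD13/MSI2 over control 1474 became 2591 by DESeq2, 2745 at 0.05 and 647 to 2066 with a library left out, the lowest without control replicate 3. In NHD13 over control 138 became 603 by DESeq2, 83 with only these 2 groups, 386 at 0.05 and 38 to 251 with a library left out. With 2 NHD13 libraries and 19242153 to 23013493 counts per library, Cdkn2a and Cdkn2b lie near the limit of detection, and the intervals of Cdkn1b and Cdkn1c leave changes of more than 1 on the log2 scale undecided.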

Other observations

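Of the kinases that the INK4 proteins bind, Cdk4 was far above the summed INK4 genes in per-length level and Cdk6 was not. Cdk4 lay between 157 and 197 RPKM in control, at 140.3 and 179 RPKM in NHD13 and between 143 and 195 RPKM in NHD13/MSI2, while the INK4 genes summed to 5.25 to 7.34, 4.60 to 6.78 and 5.12 to 5.61 RPKM. Cdk6 lay between 4.17 and 6.09 RPKM in control, at 4.53 and 5.82 RPKM in NHD13 and between 0.673 and 3.83 RPKM in NHD13/MSI2. Cdk2, a main target of the CIP/KIP proteins, lay between 16.8 and 19.7 RPKM in control, at 17.5 and 17.6 RPKM in NHD13 and between 21.2 and 24.7 RPKM in NHD13/MSI2. RNA levels do not give the amounts of protein.

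Replicate 4 of NHD13/MSI2 also differed from the other 3 libraries in the kinase CDK6. Cdk6, named after its values were seen, was at 49.8, 53.5 and 45.9 CPM in replicates 1 to 3 and at 9.41 CPM in replicate 4, against 58.3 to 85.2 CPM in control and 63.4 and 81.4 CPM in NHD13. In that library Ccnd2 (485 CPM) and Msi2 (241 CPM) were within or near the range of the control and NHD13 libraries and Cdkn1b was above all other libraries.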
